A study of Mus musculus with 36 samples.

Results

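Ribosome footprints were compared between mouse embryonic fibroblasts that had recovered for 2 h from a long hyperosmotic stress and fibroblasts that had recovered for 2 h from a short one. The 4 libraries were those whose titles give a 2 h recovery after 700 mOSM, with replicates 1 and 2 for 2 h of stress (here the long stress) and replicates 1 and 2 for 15 min of stress (the short stress). They are 4 of the 18 footprint libraries, and the series holds 36 samples, the other 18 being cytoplasmic RNA libraries of the same conditions. All cells were C57BL/6J fibroblasts, the stress in each case was sorbitol added to the growth medium, and recovery is as the labels give it. The conditions set beside the comparison were 15 min of recovery after the long and the short stress, 700 mOSM for 2 h and for 15 min, 600 and 500 mOSM for 2 h, and unstressed cells, with 2 footprint libraries each. Each lysate came from several plates, and the labels do not say whether replicates were separate cultures. The cells with the long stress had met sorbitol 4 h before lysis and those with the short stress 2.25 h before, so the length of the stress and the time since its start cannot be told apart.

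A cell in hyperosmotic medium loses water and shrinks, and translation initiation slows. Cells adapt by taking up or making compatible osmolytes, such as amino acids, betaine, taurine and myo-inositol. Ribosome footprints are the stretches of mRNA that ribosomes shield from nuclease, and their number on a coding sequence, per length and per library, reflects how much of the cell's translation that mRNA receives. It depends on both the amount of the mRNA and the ribosomes on each copy, which is why RNA from the same conditions was set beside the footprints. The lists give Ensembl transcript identifiers without gene names, so transcripts were described by length, by footprints relative to RNA and by behaviour in the other conditions. For the same reason the fibroblast label was not checked against marker genes.

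Summed over transcripts, the long-stress libraries had 4623972 and 4628977 recovered footprint reads on 10233 and 10192 listed transcripts. The short-stress libraries had 8754287 and 9124787 on 10493 and 10513. These sums lay slightly above the totals recovered as denominators of the RPKM values. Those were 4621309 and 4626359 for the long stress and 8738548 and 9108030 for the short stress. The reason for the excess was not tested. The long-stress libraries were the shallower pair. The libraries of each pair differed by little more than sampling noise: where a pair had 40 or more reads on a transcript, the mean chi-square per degree of freedom was 1.054 after the long stress and 1.036 after the short stress, where sampling noise alone gives a value near 1. The libraries of a pair were therefore averaged and counted as 1 sample. Footprint comparisons set 1 sample against 1, with no SD and no p-value, and a transcript was called where it differed at least 2-fold. Levels are scaled RPKM, the deposited RPKM divided by a median ratio for each library, and differences are log2(level + 1), long minus short, which understates differences of low transcripts.

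At 2 h of recovery, 344 of 8849 transcripts (3.89%) had at least 2-fold higher footprint levels after the long stress than after the short stress, and 547 (6.18%) had at least 2-fold lower levels. The higher side reached much further. Past 4-fold there were 73 higher and 6 lower transcripts, and past 8-fold 21 higher and 0 lower. The median log2 difference was -0.09, with quartiles of -0.45 and 0.21, and the values ran from -2.64 to 6.66. By comparison, replicates 1 and 2 were at least 2-fold apart in 40 transcripts for the long stress and in 12 for the short stress. Both long-stress libraries lay above both short-stress libraries in 340 of the 344 higher transcripts, against 33.2% of all transcripts. They lay below both short-stress libraries in 545 of the 547 lower transcripts, against 49.1% of all. The calls used these same libraries, so the lack of overlap within the sets largely follows from the calls. Among the 8551 transcripts with at least 100 reads over the 4 libraries, 314 were higher and 534 lower. In lysates of whole plates, fewer cells that translate an mRNA and less translation per cell cannot be told apart.

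**Figure D1:**
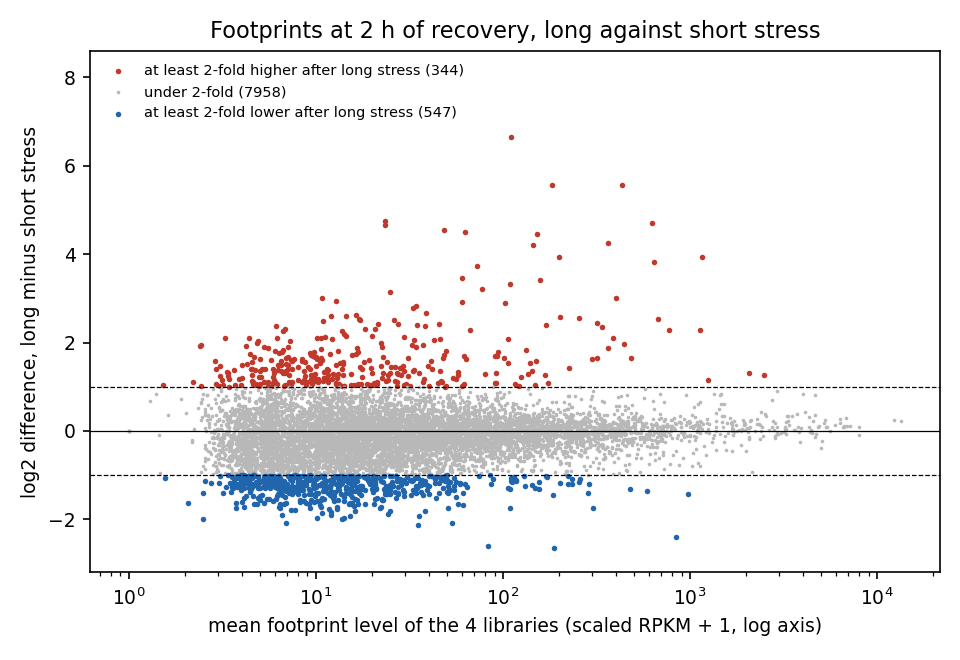
Each point is 1 of 8849 transcripts, by the mean footprint level of the 4 libraries (scaled RPKM + 1, log axis) and the log2 difference of long minus short stress at 2 h of recovery; dashed lines mark 2-fold. The 344 higher transcripts reach a log2 difference of 6.66, whereas the 547 lower ones end at -2.64.

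The 344 higher transcripts received 3.77% and 3.75% of the footprint reads in the long-stress libraries, 0.956% and 0.954% in the short-stress libraries, and 0.976% in both unstressed libraries. The 547 lower transcripts received 1.31% of the reads in each long-stress library, 3.37% and 3.36% in the short-stress libraries, and 3.37% and 3.36% in the unstressed libraries. The short-stress libraries were close to the unstressed ones in both sets. The gap between the long-stress and the short-stress libraries was fixed by the choice of the sets, and is given as a description. There were 96 transcripts listed in both long-stress libraries and in neither short-stress library, and 255 listed in both short-stress libraries and in neither long-stress library. The part of the unequal depth in these counts was not tested.

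Of the 313 higher transcripts with at least 100 reads and no overlap between the libraries, ENSMUST00000021674, with a coding length of 381 codons, differed by the widest margin. Its footprint level was 218 and 215 scaled RPKM in the long-stress libraries, and 0.762 and 1.56 in the short-stress libraries. In unstressed cells it was 1.23 and 0.966. The long-stress level was 186 times the short-stress level, with a 95% exact counting interval of 125 to 288 from 2422 reads after the long stress and 25 after the short stress. The level was already 16.0 and 19.6 at 15 min of recovery from the long stress, whereas it was 1.32 and 1.41 at 15 min of recovery from the short stress. At 500 mOSM it stood at 10.9 and 9.94, and at 600 mOSM at 3.29 and 3.60. During the stress at 700 mOSM the transcript was listed in no library of either length. Those lists held no entry under 5 reads, and the unstressed level rested on 11 and 9 reads in deeper libraries. Its absence at 700 mOSM therefore does not show a loss of footprints. Its RNA averaged 94.1 ± 0.544 scaled FPKM at 2 h of recovery from the long stress and 0.824 ± 0.0440 in unstressed cells (SD, n = 2 each), a rise of 5.70 on the log2 scale (SE 0.197, limma with Benjamini-Hochberg adjusted p = 3.15e-12). Here and below, the RNA replicates may share a culture, so SDs and p-values cover the spread between libraries only.

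The next transcript in order was ENSMUST00000064795, with 534 codons. It had 839 and 846 scaled RPKM in the long-stress libraries, 17.1 and 16.7 in the short-stress libraries, and 43.4 and 41.9 in unstressed cells. This made it 49.9 times as high after the long stress as after the short stress (95% exact counting interval 45.7 to 54.7, 13205 and 507 reads). The short-stress level lay below the unstressed level, in both libraries. At 15 min of recovery the levels were 88.7 and 88.2 after the long stress, against 35.2 and 35.7 after the short stress. From 15 min to 2 h of recovery the level thus moved up in the long-stress cells and down in the short-stress cells. The RNA rose by 5.00 on the log2 scale (SE 0.129, limma adjusted p = 1.37e-13), to 354 ± 13.2 scaled FPKM at 2 h of recovery from the long stress, against 10.1 ± 1.46 in unstressed cells (SD, n = 2 each).

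Of the 534 lower transcripts that met the same conditions, the first in order were both of 318 codons. ENSMUST00000086519 had 49.6 and 51.7 scaled RPKM in the long-stress libraries, 321 and 321 in the short-stress libraries, and 338 and 322 in unstressed cells. The long-stress level was 0.158 times the short-stress level (95% exact counting interval 0.144 to 0.174, 473 and 5739 reads). At 15 min of recovery the levels were 104 and 98.5 after the long stress and 202 and 199 after the short stress, so that this transcript moved further from its unstressed level between 15 min and 2 h of recovery from the long stress. Its RNA did not pass the test. It averaged 1388 ± 2.84 scaled FPKM at 2 h of recovery from the long stress and 1468 ± 166 in unstressed cells (SD, n = 2 each), with a log2 difference of -0.08 (SE 0.061) and an adjusted p of 0.41 by limma.

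ENSMUST00000076373 had 22.1 and 22.9 scaled RPKM in the long-stress libraries, 135 and 147 in the short-stress libraries, and 149 and 151 in unstressed cells. The ratio of long to short stress was 0.159 (95% exact counting interval 0.138 to 0.184, 210 and 2526 reads). Here too the level was lower at 2 h than at 15 min of recovery from the long stress, where it had been 37.3 and 34.2, while after the short stress it had been 90.9 and 82.6 at 15 min. Its RNA averaged 1036 ± 44.9 scaled FPKM at 2 h of recovery from the long stress and 992 ± 110 in unstressed cells (SD, n = 2 each), with a log2 difference of 0.07 (SE 0.082) and an adjusted p of 0.618 by limma. The intervals cover counting error alone, and reads that carry no molecular identifier can be copies of the same molecule.

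**Figure D2:**
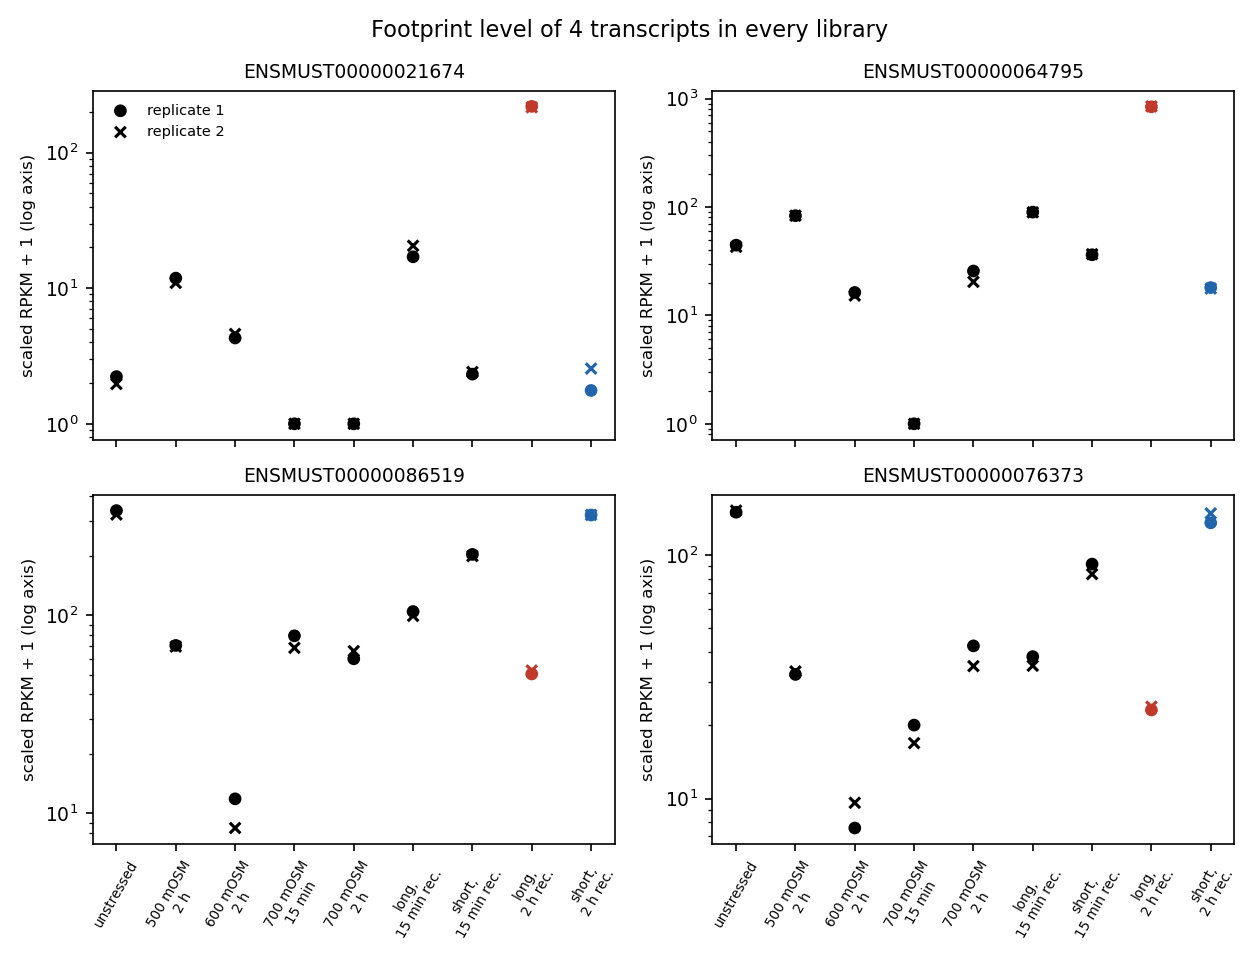
Footprint level of the 4 transcripts (scaled RPKM + 1, log axis) in each of the 18 footprint libraries, with a circle for replicate 1 and a cross for replicate 2; red marks 2 h of recovery after the long stress and blue 2 h after the short stress. The upper transcripts peak at 2 h after the long stress (218 and 839 scaled RPKM in replicate 1), and the lower ones were lowest at 600 mOSM and stood at 49.6 and 22.1 in replicate 1 of the long stress.

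The levels of the 344 and 547 transcripts in the other conditions come from libraries other than the 4 that called them. The filter on low values, however, used the mean over all footprint libraries, so the other conditions also decided which transcripts could enter the sets. A transcript low elsewhere could pass through a condition where it is high. The part of this in the medians and shares that follow was not tested. The higher transcripts had a median of 6.31 scaled RPKM in unstressed cells, 6.86 at 500 mOSM, 9.63 at 600 mOSM and 11.8 at 700 mOSM for 2 h, and of 6.61 at 700 mOSM for 15 min. The median at 15 min of recovery was 8.25 after the long stress and 6.91 after the short stress. At 2 h of recovery it was 19.0 after the long stress and 5.76 after the short stress. Its median was thus highest in the condition that chose the set, and next highest at the end of the long stress itself.

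Part of the higher set was already called high during the long stress. At 700 mOSM for 2 h, 149 of the 344 (43.3%) were at least 2-fold above unstressed cells, against 16.6% of all transcripts. These 149 are 10.1% of all transcripts that were higher at 700 mOSM for 2 h, and 91 of the 344 (26.5%) were at least 2-fold lower there, against 45.5% of all. At 600 mOSM 79 of the 344 (23.0%) were at least 2-fold higher, against 3.77% of all, and they make up 23.7% of the transcripts higher there. Only 30 (8.72%) were lower at 600 mOSM, against 35.0% of all. At 500 mOSM 38 of the 344 (11.0%) were higher, against 0.768% of all, and these are 55.9% of the 68 transcripts higher at that osmolarity. There 22 (6.4%) were lower, against 16.6% of all. At 700 mOSM for 15 min 89 (25.9%) were higher, against 17.2% of all, and 133 (38.7%) were lower, against 46.9% of all. The libraries at 700 mOSM held only 734083 to 1070017 listed reads. Replicates 1 and 2 there were at least 2-fold apart in 1254 transcripts after 2 h and in 1125 after 15 min. No entry in these lists was under 5 reads, and unlisted transcripts were set to 0. A transcript of low level could be called higher or lower through this floor alone. The set had an unstressed median of 6.31 scaled RPKM, against 22.9 for all, so its shares and those of all are not a like comparison. At 600 mOSM replicates 1 and 2 were at least 2-fold apart in 388 transcripts, and at 500 mOSM in 91. The part of depth, of the floor and of the spread between replicates in the counts at 700, 600 and 500 mOSM was not tested. At 15 min of recovery 51 of the 344 (14.8%) were higher than in unstressed cells after the long stress, against 1.83% of all, and 11 (3.2%) after the short stress, against 0.61% of all.

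The median of the lower set was below its unstressed level in every stress. It was 15.6 scaled RPKM in unstressed cells, 3.95 at 500 mOSM, 1.67 at 600 mOSM and 4.97 at 700 mOSM for 2 h, and 3.85 at 700 mOSM for 15 min. The median of all transcripts was also lower, at 22.9 in unstressed cells, 18.3 at 500 mOSM, 14.3 at 600 mOSM and 13.0 at 700 mOSM for 2 h, and 12.4 at 700 mOSM for 15 min. The median of the lower set at 15 min of recovery was 8.31 after the long stress and 14.1 after the short stress. At 2 h of recovery the median of this set was 5.65 after the long stress and 15.8 after the short stress. After the short stress the set was therefore near its unstressed level within 15 min, and after the long stress it was lower at 2 h than at 15 min of recovery.

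At 500 mOSM for 2 h, the mildest stress, 462 of the 547 lower transcripts (84.5%) were at least 2-fold below unstressed cells, against 16.6% of all transcripts, and they are 31.4% of all 1470 transcripts lower there. At 600 mOSM it was 511 (93.4%), against 35.0% of all, and these are 16.5% of the transcripts lower there. At 700 mOSM the shares were closer to those of all transcripts, with 386 (70.6%) after 2 h, against 45.5% of all, and 371 (67.8%) after 15 min, against 46.9%. The libraries at 700 mOSM were the shallowest and listed only 6193 to 7145 transcripts, and unlisted ones were set to 0. The part of this in these shares was not tested. At 15 min of recovery from the long stress 187 (34.2%) were still lower, against 5.1% of all, and they are 41.5% of the transcripts lower in that condition. Among cells 15 min into recovery from the short stress only 5 (0.914%) were lower, against 0.52% of all. For the compared conditions themselves, 436 of the 547 (79.7%) were at least 2-fold below unstressed cells after the long stress, against 7.14% of all, and 0 after the short stress, against 0.249% of all. Of the 344 higher transcripts 241 (70.1%) were at least 2-fold above unstressed cells after the long stress, against 3.88% of all, and 11 (3.2%) after the short stress, against 0.667% of all, where 12 (3.49%) were below, against 0.249% of all. These counts share the libraries that chose the sets.

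**Figure D3:**
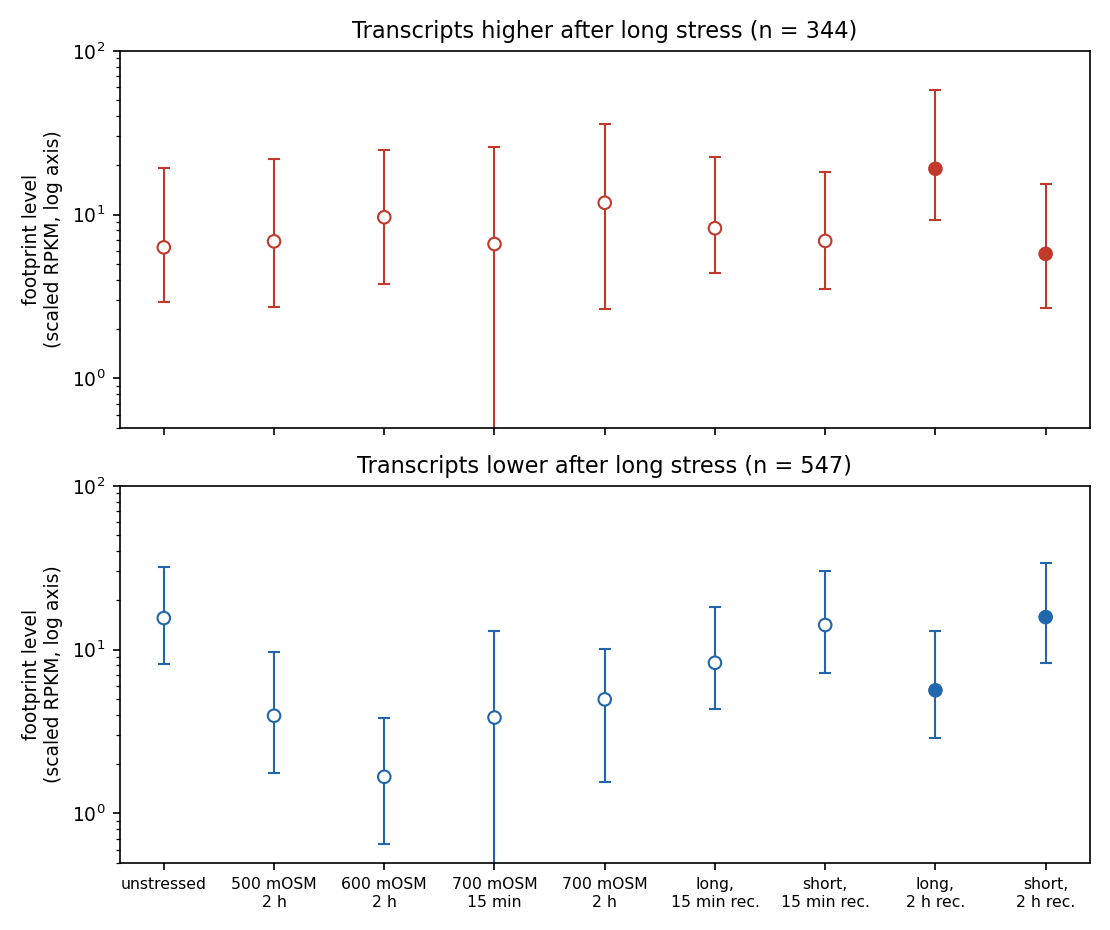
Footprint level (scaled RPKM, log axis) of the 344 transcripts higher after the long stress (above) and the 547 lower ones (below) in the 9 conditions; points are medians over transcripts, bars reach the quartiles, filled points mark the compared conditions, and bars at 700 mOSM for 15 min run off the axis because the lower quartile is 0. The lower set stands at 1.67 at 600 mOSM and at 5.65 at 2 h of recovery from the long stress, against 15.8 after the short stress.

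The difference between long and short stress was present at 15 min of recovery and was wider at 2 h. At 15 min, with other libraries, 107 transcripts were at least 2-fold higher after the long stress than after the short stress (1.21%) and 300 at least 2-fold lower (3.39%). By comparison, replicates 1 and 2 at 15 min were at least 2-fold apart in 148 transcripts for the long stress and in 60 for the short stress. Single calls at 15 min are therefore weak. Of the 344 transcripts higher at 2 h, 35 (10.2%) were at least 2-fold higher at 15 min, which is 32.7% of those higher at 15 min, 14 (4.07%) were at least 2-fold lower, and 248 (72.1%) were above 0, against 43.7% of all transcripts. Of the 547 lower at 2 h, 114 (20.8%) were at least 2-fold lower at 15 min, which is 38.0% of those lower at 15 min, 1 (0.183%) was at least 2-fold higher, and 513 (93.8%) were below 0, against 56.2% of all. The median log2 difference of the lower set was -0.60 at 15 min and -1.22 at 2 h, and that of the higher set was 0.30 at 15 min and 1.41 at 2 h. The difference was wider at 2 h in 95.3% of the 344 and in 91.6% of the 547, against 56.0% of all. Since the sets were chosen at 2 h, the widening is partly fixed by that choice.

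From 15 min to 2 h of recovery both sets moved in opposite directions after the long and the short stress. The higher set had a median log2 change of 0.91 after the long stress and of -0.24 after the short stress. The lower set had a median change of -0.44 after the long stress and of 0.22 after the short stress. Over all 8849 transcripts the medians were -0.04 after the long stress and 0.01 after the short stress. These changes use the libraries that chose the sets, and are given as a description.

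Across transcripts, the difference at 2 h of recovery went with the footprint change in the stresses that lasted 2 h. The following are descriptions over 8849 transcripts, which are not independent replicates. No library enters both sides, though the filter on low values used all footprint libraries. Spearman's rho was 0.66 with the change at 600 mOSM for 2 h against unstressed cells, 0.60 with that at 500 mOSM for 2 h, 0.48 with that at 700 mOSM for 2 h and 0.35 with that at 700 mOSM for 15 min. With the difference of long and short stress before any recovery, 700 mOSM for 2 h against 15 min, rho was only 0.11. With the difference of long and short stress at 15 min of recovery it was 0.53, with the change at 15 min of recovery from the long stress against unstressed cells 0.56, and with that after the short stress 0.15. The libraries at 700 mOSM were the shallowest, and the part of depth in their lower rho was not tested. Among the 8551 transcripts with at least 100 reads in the 4 recovery libraries the values were 0.67 at 600 mOSM, 0.62 at 500 mOSM, 0.49 at 700 mOSM for 2 h and 0.36 at 700 mOSM for 15 min.

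Most of the lower transcripts lay among those that were lowest at 600 mOSM, when transcripts were divided into 4 groups of equal size by their change there. In the group with the lowest change, the median difference of long and short stress at 2 h of recovery was -0.64, with 16 higher and 483 lower among 2213 transcripts. In the group with the highest change it was 0.23, with 205 higher and 8 lower among 2212. The same division by the change at 500 mOSM gave a median of -0.65, 41 higher and 504 lower transcripts in the lowest group. Its highest group had a median of 0.18, 153 higher and 9 lower. By the change at 700 mOSM for 2 h, the lowest group had a median of -0.38, 51 higher and 218 lower transcripts. The highest group there had a median of 0.21, 192 higher and 23 lower.

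The difference varied with the length of the coding and the non-coding sequence. Lengths were recovered from the deposited values, and non-coding length is the length of the transcript less that of its coding sequence. The median log2 difference was 0.08 in the 180 transcripts with up to 100 codons, 0.01 above that and up to 200, -0.06 up to 400, -0.11 up to 800, -0.23 up to 1600 and -0.26 in the 373 transcripts with over 1600 codons. In the shortest class 7 transcripts were higher (3.89%) and 1 lower (0.556%), against 3.89% and 6.18% of all transcripts. The share of higher transcripts in the shortest class was thus that of all. In the longest class 7 were higher (1.88%) and 33 lower (8.85%). The class of over 400 and up to 800 codons held the largest share of higher transcripts, 156 of 3166 (4.93%), and 212 lower (6.7%). The sizes in the end classes depended on the scaling, at 0.15 and -0.19 when scaled over the 4 compared libraries alone, with the sign unchanged.

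Non-coding length showed the same order. In the 1983 transcripts whose non-coding sequence was at most 500 nt the median was 0.00, and its sign there changed with the scaling, the filter and the library left out. It was -0.06 above that and up to 1000 nt, -0.13 up to 2000 nt and -0.21 in the 2433 transcripts with over 2000 nt. Of those with up to 500 nt 70 were higher (3.53%) and 49 lower (2.47%), against 3.89% and 6.18% of all transcripts. Of those with over 2000 nt 87 were higher (3.58%) and 248 lower (10.2%). Both lengths together gave the widest contrast. Among the 563 transcripts that passed both 800 codons and 2000 nt, 8 were higher (1.42%) and 86 lower (15.3%), and the median was -0.40. Among the 1116 with up to 400 codons and up to 500 nt, 38 were higher (3.41%) and 19 lower (1.7%), and the median was 0.02. The lower set had a median coding length of 576 codons and a median non-coding length of 1775 nt, the higher set 438.5 codons and 1140.5 nt, and all transcripts 441 codons and 1125.5 nt.

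Transcripts with few footprints relative to their RNA in unstressed cells made up most of the lower set. By that ratio too, transcripts were divided into 4 groups of equal size. In the lowest group the median difference was -0.41, with 78 higher and 341 lower among 2112 transcripts. In the next groups it was -0.11 and -0.03, with 103 and 52 lower. In the highest group it was 0.00, a value whose sign changed with the scaling, with 50 higher and 42 lower. The footprint level itself showed a different pattern. In the lowest such group by the unstressed footprint level 198 of 2213 transcripts were higher (8.95%) and 151 lower (6.82%), against 3.89% and 6.18% of all. In the highest group 24 of 2212 were higher (1.08%) and 56 lower (2.53%). The filter on low values averaged all footprint libraries, those of the long-stress recovery included. A transcript low in unstressed cells could thus be kept because it was high in that recovery. The part of this in the lowest group was not tested.

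**Figure D4:**
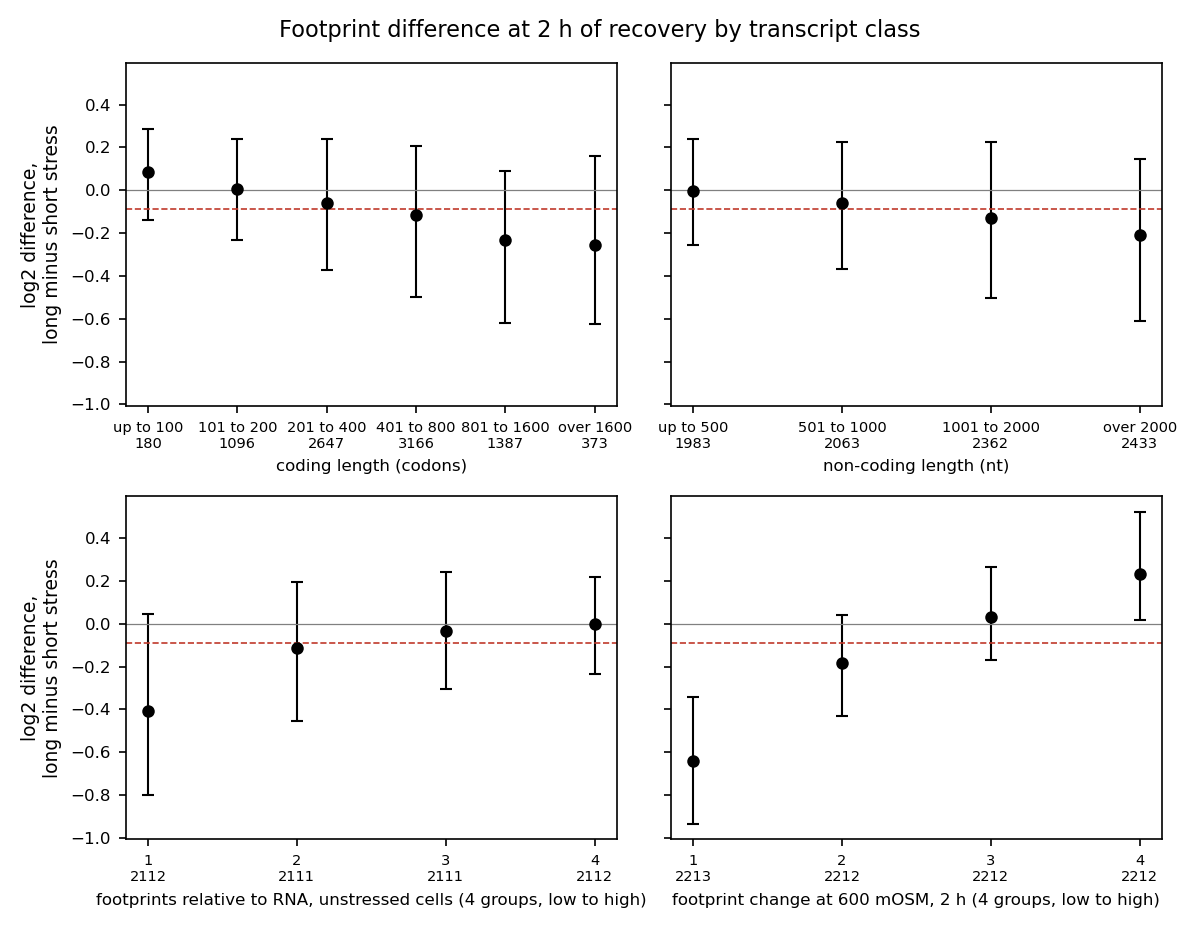
Log2 footprint difference of long minus short stress at 2 h of recovery by coding length, non-coding length, unstressed footprints relative to RNA, and footprint change at 600 mOSM; points are medians over transcripts, bars reach the quartiles, numbers under the class names count transcripts, and the dashed line is the median of all transcripts (-0.09). Medians go down with length, to -0.26 over 1600 codons, and go up with the change at 600 mOSM, where the lowest of 4 groups is at -0.64 and the highest at 0.23.

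RNA in the long-stress recovery was tested against unstressed cells, because the deposited names of the RNA libraries labelled as 2 h of recovery from the short stress point to another condition. The same holds for the RNA libraries labelled as 15 min of recovery from the long stress, and values of both groups are given as labelled. Of 9275 transcripts tested with limma, 1286 rose (13.9%) and 768 fell (8.28%) at a Benjamini-Hochberg adjusted p under 0.05 (n = 2 each). The counts rested on single libraries: without unstressed replicate 2, 2565 rose and 2037 fell, and without long-stress recovery replicate 1 and 2 the transcripts that fell were 500 and 383. Replicates that may share a culture give p-values for the spread between these libraries only. At least 2-fold, 257 transcripts were higher (2.77%) and 2 lower (0.0216%).

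The higher footprints went with higher RNA. Of the 344 transcripts, 273 passed the filter on low RNA values and 71 did not, and a transcript low elsewhere could pass through the group where it is high. Of the 273, 211 rose (77.3%, against 13.8% of the 8446 transcripts kept in both assays) and 0 fell (against 8.84%). These 211 are 18.1% of the 1163 that rose and were kept in both assays. Their RNA was at least 2-fold higher in 125, against 2.51% of all. The 273 had a median RNA change of 0.91 (quartiles 0.53 and 1.66) beside a median footprint change of 1.37 against the same unstressed cells. The 212 transcripts whose RNA was at least 2-fold higher had a median footprint difference of 1.26 between long and short stress, with 125 higher and 0 lower. At 700 mOSM for 2 h the median RNA change of the 273 was -0.08, against -0.05 for all transcripts. It was -0.02 in the RNA libraries labelled as 15 min of recovery from the long stress and 0.08 in those labelled as 2 h after the short one, against -0.02 for all in both.

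The RNA changes of the lower set were small beside those of its footprints, with more RNAs that fell than rose. Of the 538 of 547 transcripts that were tested, 109 fell (20.3%, against 8.84% of all), 32 rose (5.95%, against 13.8%) and 397 passed in neither direction (73.8%, against 77.4%). Without long-stress recovery replicate 2 there were 62 that fell and 15 that rose, without long-stress recovery replicate 1 there were 20 that rose, and without unstressed replicate 2 there were 178 and 126. The median RNA change was -0.06 (quartiles -0.24 and 0.10), and 1 of the 538 was at least 2-fold lower (all transcripts, 0.0237%). The median footprint change of the same transcripts against unstressed cells was -1.26. The footprint change lay below the RNA change by at least 1 on the log2 scale in 375 of the 538 (69.7%), against 7.58% of all transcripts. This compares 1 footprint sample with 1, and the footprints of the long-stress recovery also chose the set, so it is given as a description. In the stress itself, at 700 mOSM for 2 h, the median RNA change of the 538 was -0.49, against -0.05 for all transcripts. It was -0.03 in the RNA libraries labelled as 15 min of recovery from the long stress and -0.17 in those labelled as 2 h after the short one, against -0.02 for all in both.

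Seen from the RNA, the 1163 transcripts that rose and were kept in both assays had a median footprint difference between long and short stress of 0.32, with 211 higher (18.1%) and 32 lower (2.75%). For the 747 that fell it was -0.45, and 0 were higher and 109 lower (14.6%). For the 6536 that passed in neither direction it was -0.11, and 62 were higher (0.949%) and 397 lower (6.07%). Most of the higher transcripts tested thus lie among those whose RNA rose, whereas the share of lower transcripts passing in neither direction is near that of all transcripts.

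**Figure D5:**
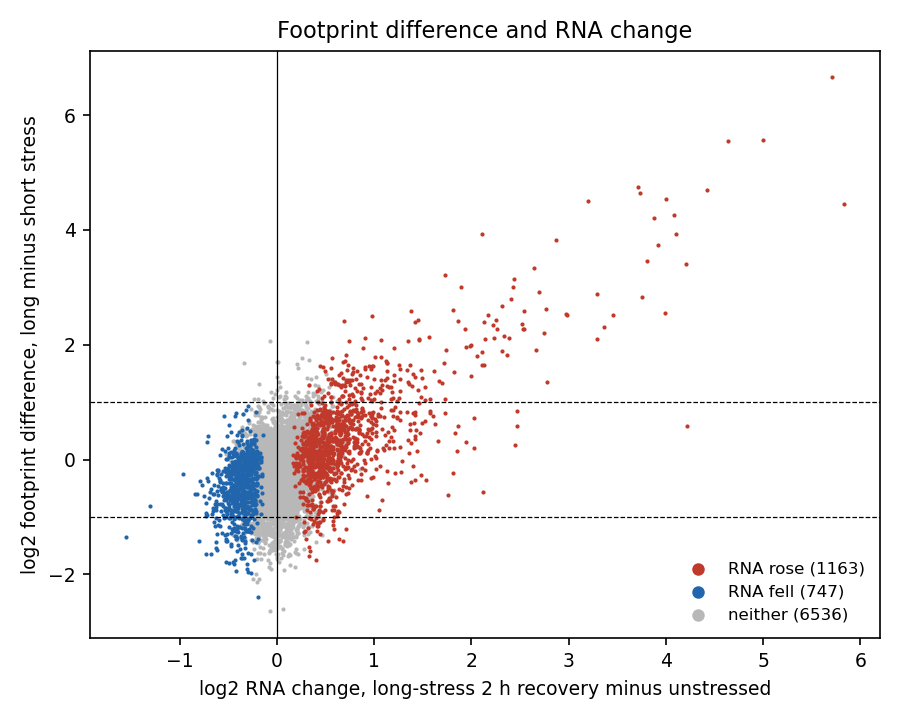
Each point is 1 of 8446 transcripts, by the log2 RNA change at 2 h of recovery from the long stress against unstressed cells and the log2 footprint difference of long minus short stress at 2 h of recovery; red and blue mark RNA that rose (1163) or fell (747) by limma, and dashed lines mark 2-fold. Footprint differences above 2-fold lie mostly on the side of risen RNA (211 transcripts), and those below -1 are spread around an RNA change of 0 (109 fell, 32 rose and 397 passed in neither direction).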

How the data were processed

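The deposited lists hold, for each library, transcript identifiers with values that the authors made as RPKM (reads per kilobase of coding length and per total reads) for footprints and as FPKM (the same for fragments) for RNA, per the file names. Cutadapt, Bowtie, STAR and the build GRCm38 stand in the submitters' processing notes without versions. Annotation and counting method: not given in the sources used here. Per the labels' protocols, lysis was in cycloheximide, gradient fractions with 1 or more ribosomes were combined and treated with RNase I, and RNA of 28 to 30 nt was purified. Library totals, lengths and whole reads were solved for from the deposited values (tolerance 1e-09). Recovery of footprint totals and reads, the 2-fold calls and the RNA test were tried on simulated data. Recovery of the RNA lengths, which enter the non-coding lengths, was not. Almost no footprint list entry was under 5 reads, and transcripts absent from a list were set to 0.

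For scaling, a median ratio was taken from transcripts that every library of an assay listed and that averaged at least 10 (4619 for footprints, 5705 for RNA). A difference is thus relative to the typical abundant transcript, and the total amount of translation was not measured. Transcripts averaging at least 2 over 18 libraries were kept (8849 footprint, 9275 RNA, 8446 both), with a pseudocount of 1. The RNA test was limma 3.58.1 (R 4.3.3), in 1 fit of 18 libraries with 9 group means, a weight per group and a mean-variance trend, two-sided. Weights were 2.01 for the long-stress recovery group and 0.32 for unstressed cells, the lowest. The named transcripts were the first 2 in each direction among 847 that were at least 2-fold apart, had at least 100 reads and did not overlap between groups. Gene lists, cell type markers and longer lists of named genes were planned and not used here, since 0 identifiers matched the name tables. The comparison, its classes and these rules were chosen with earlier results of these data known.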

Additional observations from a re-analysis of the deposited data

Results flagged for a closer look

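Between 15 min and 2 h of recovery, 3 of the 4 named transcripts moved in opposite directions after the long and the short stress, in every pairing of the libraries. The log2 change of ENSMUST00000064795 was 3.24 after the long stress and -1.03 after the short stress, a difference of 4.27. For ENSMUST00000086519 it was -0.98 after the long stress and 0.68 after the short stress, a difference of -1.66. For ENSMUST00000076373 it was -0.64 after the long stress and 0.70 after the short stress, a difference of -1.34. These differences were not tested, since the libraries of a condition count as 1 sample, and the transcripts were chosen for their difference at 2 h.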

How the results depend on the processing

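The direction of the footprint counts (more lower than higher) held under every alternative but calls at 4-fold and 8-fold, while their size moved. A pseudocount of 5 gave 178 higher and 190 lower, a filter at a mean of 10 gave 176 and 246, and no filter on low values gave 522 and 698. Scaling over the 4 compared libraries gave 381 higher and 455 lower, so the excess of lower transcripts was smaller. The median log2 difference of all transcripts was then -0.02, against -0.09 in the main setting. Calls chosen after seeing the data gave 846 and 1655 at 1.5-fold, 73 and 6 at 4-fold, and 21 and 0 at 8-fold. Taking the libraries as replicates, limma at an adjusted p under 0.05 with no fold minimum gave 2196 higher and 3284 lower, and with the replicate number as a block 2186 and 3267. Of these, 334 higher and 545 lower were also at least 2-fold apart (335 and 544 with the block). Same-numbered libraries deviated together with r = 0.03 for footprints and 0.26 for RNA, over a single pair of numbers, so the numbers were not taken to pair the samples. The block gave 1399 risen and 865 fallen RNAs.

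The median of transcripts with over 1600 codons was -0.19 when scaled over the 4 compared libraries, -0.28 and -0.17 with pseudocounts of 0.25 and 5, -0.17 with no filter, -0.16 with a filter at 10, and -0.26 to -0.24 with a library left out. That of up to 100 codons was 0.15 when scaled over the 4 libraries, and 0.058 to 0.082 with a library left out. The median for up to 500 nt of non-coding sequence changed sign to 0.0063 as deposited, 0.063 when scaled over the 4 libraries, 0.011 with a filter at 10, and -0.010 to 0.0048 with a library left out. In the same order, that of the highest of the 4 groups by footprints relative to RNA became 0.0084, 0.066, 0.0027, and -0.0044 to 0.0032. RNA that rose numbered 2279 with no filter, and 883 to 2565 with a library left out. RNA that fell numbered 1272 with equal weights, 407 in a fit of the 4 compared libraries, and 383 to 2037 with a library left out. Among the lower set it was 70 in the 4-library fit and 62 to 178 with a library left out. The cause was not tested in any of these. Depth limits transcripts with few reads, most of all at 700 mOSM.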
